A study of Ovis aries with 41 samples.

Results

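Skin of the tail base was compared between 4 rams of the genotype A/A and 3 rams of the genotype D/D at HOXB13, using only the tail base columns, and the 2 libraries of each ram were summed so that every ram counted as 1 sample. This took 14 of the 41 libraries of the study. All rams were adult animals of the Improved Jezersko-Solčava sheep breed, A being the ancestral and D the derived allele, which differ by an insertion in the HOXB13 promoter, and the labels give no treatment, age or flock. The A/A rams were 835507, 871932, 871784 and 871772 and the D/D rams 871787, 871869 and 871868, and the same animals also gave skin of the mid-tail and the tail tip. The study describes the A/A rams as short-tailed and the D/D rams as long-tailed. Mid-tail and tip therefore lie farther from the base in D/D. The rams were animals that performance testing had excluded from breeding. Genotype is carried by whole animals, so anything else that differs between these 7 rams cannot be told apart from it. RNA with a poly(A) tail was selected and sequenced, and the ram sums held 22194628 to 32516393 counts.

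HOX genes encode transcription factors that tell cells of the embryo where they lie along the body axis, and genes of the last paralog groups act in the most posterior parts. HOXB13 is the last gene of the HOXB cluster and is known to limit the growth of the tail in mice. Skin keeps a record of its position in the HOX genes its fibroblasts express, next to the glands, wool follicles, vessels and immune cells that a skin sample holds. The comparison at the base asks how skin of the genotypes differs where the tail begins.

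HOXB13 itself was almost without counts at the tail base. It lies on chromosome 11 (37525009 to 37530787, build ARS-UI_Ramb_v3.0), and 11 of the 14 libraries had no count of it. The other 3 libraries had 1 count each, from the A/A rams 835507 and 871784 and the D/D ram 871869. In CPM, counts scaled to the ram's total after TMM normalization, the A/A rams stood at 0.044, 0, 0.0306 and 0, and the D/D rams at 0, 0.0307 and 0. The genotypes overlapped, with a ratio of 1.69 whose exact 95% interval of counting error reached from 0.0882 to 99.9, and a two-sided exact permutation test over 35 assignments of the rams gave p = 0.83, where 0.0286 is the smallest p that 4 rams against 3 allow. With 101930449 counts in A/A and 86316130 in D/D, a difference was not detectable at this depth. HOXB13 did not pass the filter on low counts and has no value in the test across genes.

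No gene passed the test. Among 17738 genes tested with edgeR's quasi-likelihood test, 0 (0%) had an adjusted p of at most 0.01 with an absolute log2 fold change over 1 and 0 (0%) an adjusted p under 0.05, the smallest adjusted p being 0.9999. The log2 fold changes stand for A/A over D/D and were positive for 50.9% of the genes, with a median of 0.0053. An unadjusted p below 0.05 came out for 349 genes with higher values in A/A (1.97%) and 218 with lower values (1.23%). In 504 genes (2.84%) every A/A ram lay above every D/D ram, and in 332 genes (1.87%) every A/A ram lay below. This excess of higher genes turned with library totals in place of TMM (396 higher, 431 lower) and with library 2 alone (206 higher, 370 lower). DESeq2 on the same ram sums called 6 genes at the stricter threshold and 17 at an adjusted p under 0.05, while limma-voom called 0, with 729 and 543 genes at an unadjusted p under 0.05. Under the study's own design, refitted here on single libraries, 56 genes passed in DESeq2, with 35 higher and 21 lower in A/A. The study itself reports a somewhat larger number at the base, also mostly up in A/A. In that design a number that ties no animals together pairs rams of opposite genotype, and the libraries of a ram stand as replicates. As refitted, the A/A ram 871772 had a number that no D/D ram shared, so it did not enter the genotype difference. The values given in the following paragraphs therefore describe these 7 rams, and p-values without adjustment only order the genes.

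The 2 libraries of a ram correlated in log2 CPM across genes with r of 0.976 to 0.988 in 6 rams and 0.9528 in ram 871772, against 0.9503 to 0.9824 between ram sums. The labels number the libraries of a ram but do not say whether they came from separate pieces of skin, so the spread between them may be technical. Skin markers were high in every ram, with a summed level of 17080 to 33420 CPM for 25 genes of the epidermis and 16110 to 27950 CPM for 27 genes of dermal fibroblasts and matrix. The A/A ram 835507 had a summed level of 5536 CPM for the 18 sebaceous gland markers in the data, against 906.4 to 2098 in the other 6 rams. Its sum for the 20 adipocyte markers in the data was 3964 CPM, against 1024 to 1541. The adipocyte list shares PPARG and CIDEA with the sebaceous list, and not all its members were high. ADIPOQ (92.8 CPM) and LEP (0.264 CPM) were lowest in this ram. Its wool follicle markers had the lowest sum, 14270 CPM against 15300 to 24480. Mitochondrial genes took 6.59 to 10.3% of the counts, and the genotypes overlapped. In a bulk sample, fewer cells of a type and less RNA per cell cannot be told apart, which holds for every marker gene named here.

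Ribosomal RNA moved with the genotype. Genes annotated as rRNA outside the mitochondria took 3.35, 2.04, 1.41 and 1.87% of the counts in the A/A rams, and 0.926, 0.965 and 0.932% in the D/D rams. Every A/A ram lay above every D/D ram (two-sided exact permutation test over 35 assignments, p = 0.0571). The share was also 1.0 to 3.07% in A/A against 0.545 to 0.76% in D/D at the mid-tail, and 1.49 to 2.56% against 0.638 to 1.16% at the tip. LOC121818848, an rRNA gene of chromosome 2 (250088714 to 250090580), was at 7040, 3320, 2750 and 4050 CPM in A/A and at 1670, 1530 and 959 CPM in D/D, a log2 fold change of 1.63 ± 0.34 (SE). LOC121818849 beside it (250093375 to 250098250) was at 3514 ± 543.4 CPM (SD, n = 4) against 1955 ± 16.6 (SD, n = 3). Copies of rRNA genes share reads, so the split of the counts between them is uncertain.

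With the 2 libraries of each ram summed, long genes also lay higher in A/A. When the tested protein coding genes were put in 5 groups of 3170 by genomic span, the distance from gene start to gene end, the median log2 fold change went from -0.0956 in the shortest group (0.241 to 6.72 kb) over -0.0728, -0.0192 and 0.0647 to 0.158 in the longest (80.5 to 2760 kb). Of the longest genes 6.53% had every A/A ram above every D/D ram and 1.01% every A/A ram below, and of the shortest 1.2% and 2.59%. Ram by ram the difference between the longest and the shortest group was 0.352, -0.227, 0.105 and 0.134 on the log2 scale in the A/A rams, against -0.115, -0.0266 and -0.281 in the D/D rams. The genotypes overlapped through ram 871932 (two-sided exact permutation test, p = 0.171). In library 1 alone this difference was 0.571, -0.0853, 0.242 and 0.232 in A/A against -0.252, -0.236 and -0.46 in D/D, without overlap. In library 2 alone it was 0.147, -0.344, -0.0352 and -0.0103 against -0.00927, 0.269 and -0.175. There the genotypes overlapped, and A/A did not lie higher. Removing this trend from each ram was an alternative chosen after seeing the data. In edgeR 541 of 17688 genes then had an unadjusted p under 0.05, against 567 of 17738 without the removal. With and without it, 0 genes had an adjusted p under 0.05. The part of rRNA and span in the differences between single genes was not tested otherwise.

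**Figure D1:**
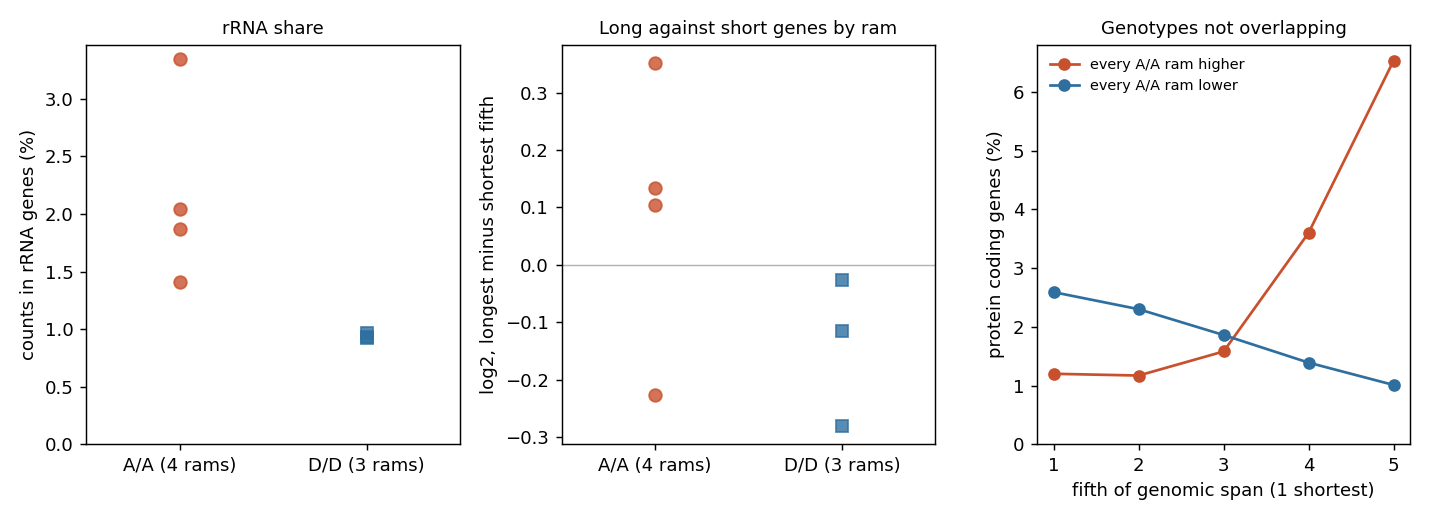
Left, share of counts in rRNA genes per ram in percent. Middle, median log2 deviation from the mean of all rams in the longest minus the shortest of 5 groups of genes by genomic span, per ram. Right, percent of the protein coding genes of each group in which every A/A ram lay above (orange) or below (blue) every D/D ram. The 4 A/A rams had 1.41 to 3.35% rRNA and the D/D rams 0.926 to 0.965%, and the share of genes with every A/A ram above went from 1.2% in the shortest to 6.53% in the longest group.

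SCD, the desaturase that puts the double bond into stearic and palmitic acid, had the smallest p of the 12 genes with a symbol that are named for higher values in A/A. It lies on chromosome 22 (21026048 to 21038058) and was at 323, 426, 188 and 728 CPM in the A/A rams and at 53.1, 76.7 and 112 CPM in the D/D rams. The groups did not overlap, and the log2 fold change was 2.37 ± 0.44 (SE, adjusted p = 0.9999 from edgeR, adjusted p = 5.9e-05 from DESeq2). A two-sided exact permutation test gave p = 0.0571. SCD was named because its groups do not overlap, so a low p was fixed in advance and the test adds no support. The separate libraries gave a different picture. In library 1 the A/A rams had 624, 512, 260 and 1200 CPM (scaled to the library total) and the D/D rams 24.1, 39.8 and 87.5. In library 2 they had 68.2, 339, 122 and 85.8 against 83.2, 134 and 129, and the genotypes overlapped. The log2 fold change was 3.73 with library 1 alone (standard error 0.63) and 0.46 with library 2 alone (standard error 0.50).

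The difference between the libraries ran through most of the genes named for higher values in A/A. By the rule on names, the 12 genes with the smallest p in each direction are described, among genes with a symbol, at least 1 CPM and genotypes that do not overlap. Of the 12 higher genes, 11 had genotypes that did not overlap in library 1 and 0 in library 2, and their median log2 fold change was 1.75 in library 1 and 0.462 in library 2. Of the 12 lower genes, 7 did not overlap in library 1 and 8 in library 2, with medians of -1.1 and -1.13. Over all genes, every A/A ram lay above in 1070 and below in 666 of 16216 in library 1. In library 2 it was 206 and 370 of 16301. The named genes were chosen for no overlap in the sum of both libraries, so these counts are not a trait of these genes alone. The libraries differed in other measures as well. In A/A the rRNA share was higher in library 1 than in library 2 in 4 of 4 rams, 4.75 against 2.14% in ram 835507 for example, and in D/D it was 0.754 to 0.958% in library 1 and 0.916 to 1.03% in library 2. The difference between the longest and shortest genes was higher in library 1 in the 4 A/A rams and lower in library 1 in the 3 D/D rams. With library 1 alone, 1201 genes had an unadjusted p under 0.05 in edgeR with higher values in A/A and 450 with lower values, and with library 2 alone 121 and 311. No gene had an adjusted p under 0.05 in either.

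**Figure D2:**
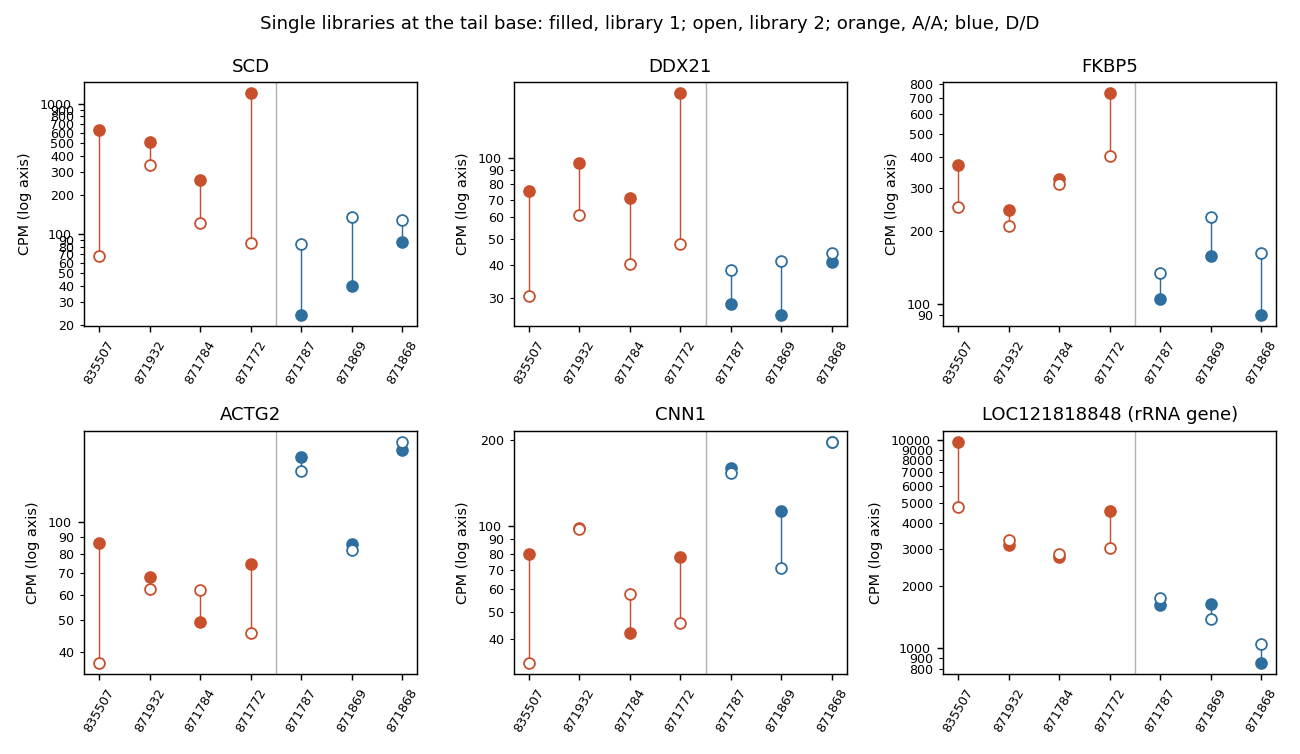
CPM scaled to the library total (log axis) of 6 genes in the single libraries of each ram at the tail base, with library 1 filled and library 2 open, A/A orange and D/D blue. For SCD and DDX21 the open points of A/A and D/D overlap, while for ACTG2 and the rRNA gene neither the filled nor the open points show an A/A ram on the other side of the D/D rams, apart from ACTG2 in library 1, where ram 835507 reaches the lowest D/D ram.

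Other genes among the 12 act in hormone signalling, the immune system and pigment cells. FKBP5, a co-chaperone of the glucocorticoid receptor that glucocorticoids induce, was at 303, 229, 312 and 608 CPM in A/A and at 119, 185 and 133 CPM in D/D. The genotypes did not overlap, the lowest A/A ram lying above the highest D/D ram, and the log2 fold change was 1.32 ± 0.33 (SE). THRB, a receptor of thyroid hormone, was at 8.16 ± 2.3 CPM (SD, n = 4) against 3.32 ± 1.12 (SD, n = 3), with a log2 fold change of 1.30 that turned to -0.17 with library 2 alone. CRACR2A, a calcium sensor of T cells, had a log2 fold change of 1.17 ± 0.27 (SE) and IKZF3, a transcription factor of lymphocytes, 1.55 ± 0.41 (SE). HIVEP3, a large zinc finger protein, was at 17.9 to 21.2 CPM in A/A and at 7.77 to 12.5 in D/D. DMBT1, a secreted scavenger receptor of epithelia, had a log2 fold change of 1.56 ± 0.43 (SE), CGNL1, a protein of cell junctions, 0.66, which turned to -0.11 with library 2 alone, and BLOC1S6, a subunit of a complex that builds melanosomes and lysosome-related organelles, 0.83. DDX21, a helicase of the nucleolus that acts in the processing of rRNA, was at 50.8, 78.5, 54.6 and 122 CPM in A/A and at 33.2, 32.0 and 42.2 in D/D. In library 2 its range was 30.6 to 61.5 CPM in A/A and 38.3 to 44.4 in D/D, and the genotypes overlapped.

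RPE65, the isomerase of the visual cycle, and TNNC1, troponin C of slow and cardiac muscle, were higher at low levels. RPE65 was at 0.88, 1.14, 0.429 and 2.72 CPM in A/A and at 0.205, 0.123 and 0.297 in D/D. TNNC1 was at 0.352, 5.05, 0.613 and 3.52 CPM against 0.123, 0.246 and 0.264, so that rams 871932 and 871772 carried most of its level. Its log2 fold change was 3.44 ± 0.94 (SE, adjusted p = 0.027 from DESeq2). Among the 11 skeletal muscle genes tested, TNNT3, a troponin of fast fibres, went the other way with 0.88, 1.38, 0.398 and 0.985 CPM in A/A against 3.04, 1.5 and 1.65 in D/D. The median over these 11 genes was 0.04.

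**Figure D3:**
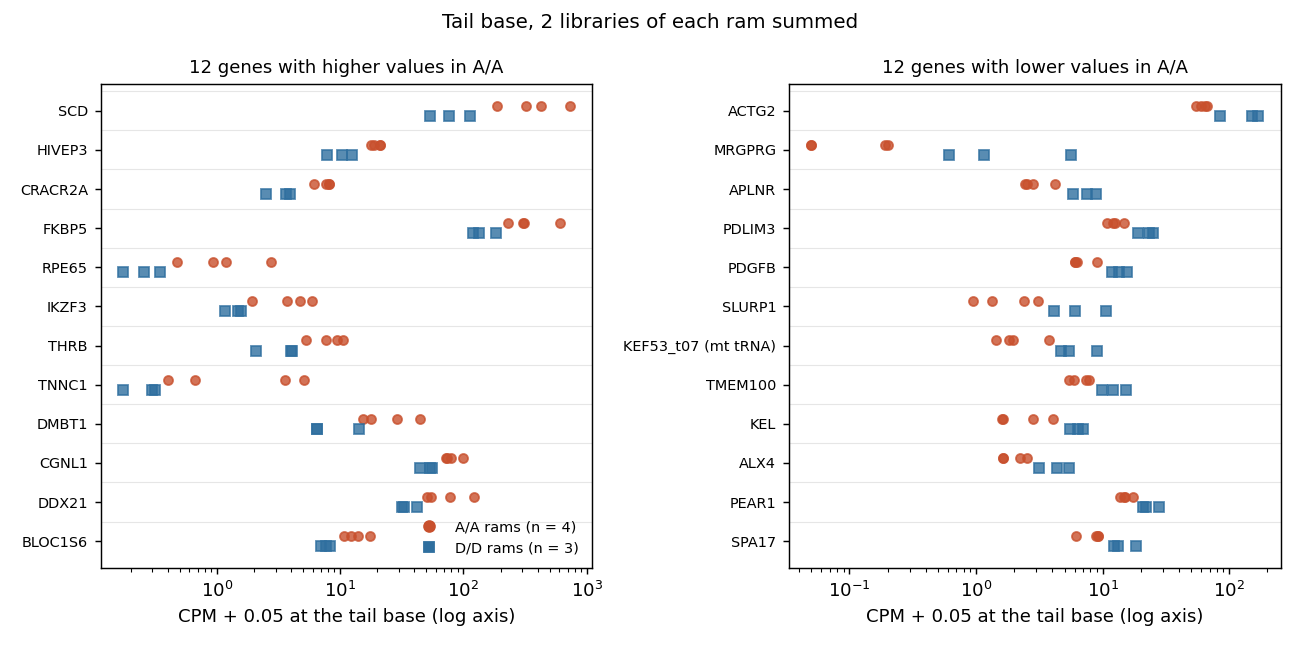
Values of the 7 rams at the tail base in CPM after TMM with 0.05 added (log axis) for the 12 genes with the smallest p in each direction, with the 2 libraries summed, where circles are the 4 A/A rams and squares the 3 D/D rams. The rule asked for genotypes that do not overlap, and the gap between them is narrow in most genes, for example in IKZF3, PEAR1 and SPA17.

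Of the 12 lower genes, ACTG2, the gamma actin of smooth muscle, had the smallest p. It was at 59.2, 66.6, 54.8 and 64.0 CPM in A/A and at 151, 84.2 and 169 CPM in D/D, with a log2 fold change of -1.14 ± 0.23 (SE, adjusted p = 0.027 from DESeq2). The A/A rams lay close together and below every D/D ram. PDLIM3, a PDZ and LIM protein of the contractile apparatus, was at 12.5 ± 1.69 CPM (SD, n = 4) against 22.4 ± 3.13 (SD, n = 3). APLNR, the receptor of apelin on endothelial cells, was at 2.95 ± 0.82 CPM (SD, n = 4) against 7.36 ± 1.47 (SD, n = 3), and TMEM100, a membrane protein of endothelium, had a log2 fold change of -0.90. PDGFB, a growth factor that recruits pericytes to vessels, had a log2 fold change of -1.0 ± 0.23 (SE) and PEAR1, a receptor of platelets and endothelium, -0.64. KEL, the Kell blood group protein, had -1.34. SLURP1, a secreted protein of keratinocytes, was at 0.891 to 3.01 CPM in A/A and 4.11 to 10.6 in D/D. MRGPRG, a receptor of sensory neurons, was at 0, 0, 0.153 and 0.141 CPM in A/A and at 1.11, 5.53 and 0.56 in D/D. KEF53_t07, a mitochondrial tRNA gene, was at 1.38 to 3.7 CPM in A/A and 4.64 to 8.96 in D/D.

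Contractile genes of smooth muscle were among those with lower values in A/A, though not the list as a whole. Of the 17 markers of smooth muscle and pericytes, all tested, 8 had positive and 9 negative log2 fold changes with a median of -0.02, against 0.0053 over all genes. An unadjusted p under 0.05 was found for 5 with lower values, ACTG2, CNN1, ACTA2, TAGLN and MYL9, where the background is 1.23%, and for 1 with higher values, where it is 1.97%. CNN1, calponin of smooth muscle, was at 54.4, 100, 49.1 and 65.8 CPM in A/A and at 155, 96.6 and 192 CPM in D/D, with a log2 fold change of -1.14 ± 0.29 (SE). The genotypes overlapped through ram 871932 of A/A and ram 871869 of D/D. ACTA2, the alpha actin of smooth muscle and myofibroblasts, was at 247, 327, 230 and 340 CPM in A/A and at 430, 335 and 552 in D/D, and again the genotypes overlapped. TAGLN, which codes for transgelin, and MYL9, a regulatory light chain of myosin, were named after their values were seen and had log2 fold changes of -0.70 and -0.72. MYOCD, the coactivator that switches on this group of genes, had 2.04 to 3.17 CPM in A/A and 0.945 to 1.5 in D/D, the other direction. The summed level of the list was 1401 to 2215 CPM in A/A and 1756 to 2915 in D/D.

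Genes of vessels with lower values in A/A were single members of their list. Of the 24 markers of blood and lymphatic endothelium, 9 had positive and 15 negative fold changes on the log2 scale (median -0.05), and 2 with lower values had an unadjusted p under 0.05, against 1.23% of all genes tested. ACKR1, the chemokine receptor of venules, was at 2.56 to 4.9 CPM in A/A and 4.91 to 8.97 in D/D, and SELP, the selectin that catches leukocytes, at 2.52 to 5.3 against 6.41 to 7.8. SOX18, a transcription factor of vessels and of the dermal papilla, had a log2 fold change of -1.03 ± 0.33 (SE). The summed level of the list was 529.8 to 810.6 CPM in A/A and 612.3 to 658.1 in D/D, so that the genotypes overlapped. ELN, the elastin of elastic fibres, was at 36.8, 49.8, 77.4 and 83.9 CPM in A/A and at 113, 91.0 and 87.4 in D/D. It belongs to the 27 genes of dermal fibroblasts and matrix, of which 15 were positive and 12 negative (median 0.02). ELN had the lowest log2 fold change of that list. ACAN, the proteoglycan aggrecan, was at 0.44 to 1.31 CPM in A/A against 2.03 to 2.55 in D/D.

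Lipid genes beside SCD differed less. Among the 29 tested genes that make and elongate fatty acids, 20 had positive and 9 negative log2 fold changes with a median of 0.14, and 3 had every A/A ram above every D/D ram, which holds for 2.84% of all genes tested. ACACB, an acetyl-CoA carboxylase, had a log2 fold change of 0.79 ± 0.32 (SE), ACACA, its cytosolic relative, 0.43, and ELOVL6, the elongase that works before SCD, 0.94 ± 0.47 (SE). ELOVL6 was at 92.0, 182, 343 and 447 CPM in A/A and at 87.2, 157 and 172 in D/D, and the genotypes overlapped. EHHADH, an enzyme of beta-oxidation in peroxisomes, was at 18.5 to 29.4 CPM against 11.9 to 17.0. It had the highest log2 fold change of 29 tested beta-oxidation genes, of which 14 were positive and 15 negative (median -0.02). LPIN1 and LPIN2, phosphatases on the way to triglycerides, had 0.76 and 0.39. Of 28 tested genes of triglyceride synthesis and lipid droplets, 17 were positive and 11 negative (median 0.07). Of 21 tested genes of cholesterol synthesis, 20 had positive log2 fold changes with a median of 0.13, none with an unadjusted p under 0.05. In the same rams 6 of the 21 were positive at the mid-tail (median -0.09) and 5 at the tip (median -0.15).

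These lipid genes stood beside gland markers that differed between rams more than between genotypes. The 17 sebaceous gland markers had 15 positive and 2 negative log2 fold changes and a median of 0.35. SOAT1, which esterifies cholesterol in the gland, was at 671, 46.7, 147 and 64.8 CPM in A/A and at 169, 57.8 and 91.6 in D/D. FAR2, which makes fatty alcohols for wax esters, was at 2200, 127, 226 and 146 CPM against 326, 163 and 207. Both were set by ram 835507, and without it their log2 fold changes turned to -0.30 and -0.48. SCD did not turn with this ram, with 2.47 ± 0.46 (SE) without it. Adipocyte markers had 7 positive and 11 negative fold changes on the log2 scale (median -0.18), and ADIPOQ, the hormone adiponectin, was at 92.8 to 470 CPM in A/A and 176 to 374 in D/D. Of the 16 fatty acid genes that the study names, all tested, 6 had positive and 10 negative values with a median of -0.14. PTGDS, a prostaglandin D synthase, was at 14.3, 22.8, 26.0 and 34.5 CPM in A/A and at 41.5, 32.6 and 45.6 in D/D, and the genotypes overlapped.

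**Figure D4:**
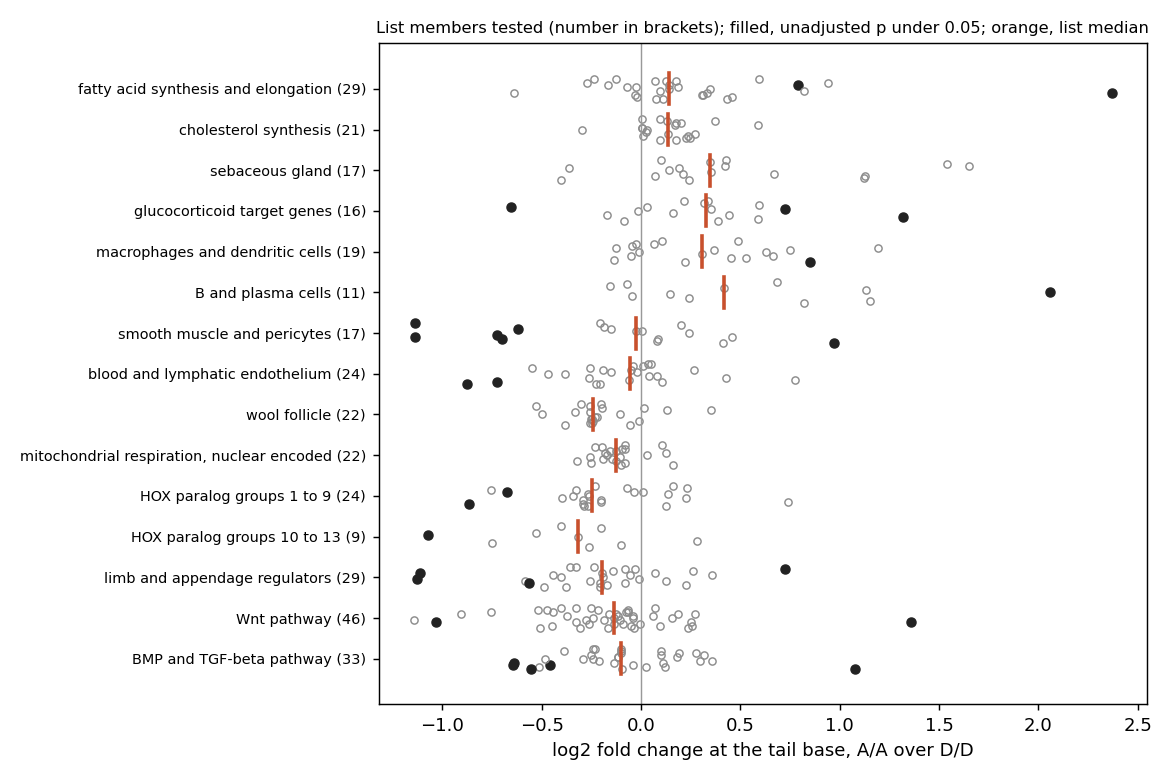
Genotype difference (log2 fold change, positive where A/A is higher) for each tested member of 15 gene lists, with the number tested in brackets. Filled points have an unadjusted p under 0.05 and the orange bars are list medians. The 5 contractile genes stand to the left of the smooth muscle row, SCD at 2.37 to the right of the fatty acid row, and most points of the HOX and limb rows lie to the left of 0 with medians of -0.32 to -0.19.

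HOX genes other than HOXB13 were measured at the base, and most had lower values in A/A. Of the 24 tested genes of paralog groups 1 to 9, 7 had positive and 17 negative fold changes on the log2 scale (median -0.25), and of the 9 tested of groups 10 to 13, 1 was positive and 8 negative (median -0.32). Not tested were HOXB1, HOXD1, HOXB13, HOXD12 and HOXD13, which had 0 to 5 counts in all. HOXC11 was at 0.924, 0.814, 0.766 and 0.703 CPM in A/A and at 1.4, 1.69 and 1.98 in D/D. The groups did not overlap, and the log2 fold change was -1.07 ± 0.34 (SE). HOXC10 beside it was at 3.28 to 4.27 CPM against 4.97 to 5.5, with -0.40 ± 0.24 (SE). HOXD9 was at 2.52 to 2.95 CPM in A/A and 3.99 to 4.68 in D/D, and HOXB2, near the other end of the HOXB cluster from HOXB13, at 1.8 to 3.3 against 4.36 to 4.84. HOXA6 went the other way with 9.11, 6.8, 3.31 and 4.08 CPM in A/A against 2.71, 3.04 and 4.68 in D/D, a log2 fold change of 0.74 ± 0.39 (SE), and its genotypes overlapped at the base but not at the mid-tail (1.16) or tip (1.05). HOXD3 had -0.75 and overlapped. HOXA13 was at 1.23, 0.936, 0.429 and 1.5 CPM in A/A and at 0.329, 1.29 and 0.857 in D/D, and the genotypes overlapped. HOX genes are short, with a median span of 7.72 kb in groups 1 to 9 and 5.12 kb in groups 10 to 13, and the shortest genes as a whole had a median of -0.0956. Only 33% of protein coding genes in the shortest group by span had positive log2 fold changes, and 36.4% in the next shortest. The HOX sign counts are to be read beside these shares. With the trend in span removed, the medians of the lists were -0.18 and -0.20.

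Other developmental genes of limb and skin patterning also had more negative than positive log2 fold changes. Of 29 limb and appendage regulators tested, 6 had positive and 23 negative fold changes on the log2 scale (median -0.19, and -0.16 with the span trend removed). ALX4, a homeobox gene of limb and skin patterning, was at 1.58, 2.48, 2.18 and 1.59 CPM in A/A and at 3.08, 4.33 and 5.34 in D/D, a log2 fold change of -1.11 ± 0.32 (SE). HAND2 and TWIST2, basic helix-loop-helix factors, had -1.13 and -0.56, and ZBTB16, a zinc finger regulator of the hindlimb, had 0.73 ± 0.24 (SE). Of 46 Wnt pathway genes 10 were positive and 36 negative (median -0.14). The ligand WNT2 had -1.03 and LGR6, a receptor for R-spondins, 1.36, with 5.15, 2.2, 1.59 and 1.45 CPM in A/A against 1.15, 0.338 and 1.55 in D/D. Of 33 genes of the BMP and TGF-beta pathways 12 were positive and 21 negative (median -0.10). The ligand TGFB1 had -0.46, the activin subunit INHBB -0.55, the BMP antagonist GREM1 -0.65, and LTBP2, which binds to microfibrils, -0.64 ± 0.21 (SE). BMPR2, the type II receptor, named after its values were seen, was at 11.7 to 44.7 CPM in A/A and 8.7 to 10.8 in D/D.

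Of 7 tail length genes taken from the study, 3 were tested at the base, and IBH, which it also names, matched no gene symbol and was not analysed here. PDGFD, a growth factor linked to fat tails, was at 55.3, 26.1, 42.4 and 72.0 CPM in A/A and at 35.9, 39.6 and 34.7 in D/D, with a log2 fold change of 0.41 (95% interval -0.24 to 1.07). BMP2, a bone morphogenetic protein, had -0.12 (95% interval -0.49 to 0.26). GDF11, which acts on the switch from trunk to tail in the embryo, had 0.18 (95% interval -1.13 to 1.5). The genotypes overlapped in all 3, and the intervals leave room for differences in either direction. LIN28A and LIN28B were at 0 counts, TBXT at 1 and HOXB13 at 3. Of the genes that the study followed by qPCR, LOXL4, a lysyl oxidase that crosslinks collagen, was at 7.13, 9.69, 24.5 and 14.7 CPM in A/A and at 7.93, 8.51 and 6.26 in D/D. AGT, angiotensinogen, was at 0.088, 0.977, 0.337 and 0.656 CPM against 1.23, 1.2 and 2.17, and did not overlap. ALOX15, a lipoxygenase, was at 0.692 to 1.36 CPM in A/A and at 1.07, 7.28 and 1.05 in D/D, so that its log2 fold change of -1.63 rests on ram 871869. ACSM2B, an acyl-CoA synthetase, was at 53.6 CPM in ram 835507 and at 0.328 to 1.07 in the other A/A rams, against 0.534 to 15 in D/D, and its sign turned without that ram. SP8 had 2 counts.

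Around HOXB13 the values lay on both sides. Within 1 Mb on chromosome 11 the file lists 69 genes, of which 43 were tested, 18 with positive and 25 with negative fold changes on the log2 scale (median -0.04). ZNF652, a zinc finger repressor (36972839 to 37036133), was at 39.1, 16.7, 18.8 and 48.2 CPM in A/A and at 13.7, 12.4 and 15.1 in D/D, with a log2 fold change of 1.16 ± 0.36 (SE). LOC114116860, a long noncoding RNA (38259190 to 38299278), had 1.15 and overlapped. HOXB2 (37677012 to 37681178) had -0.87 ± 0.30 (SE) and FAM117A (36581032 to 36643483) -0.56. These 4, 2 in each direction, were the neighbours with an unadjusted p under 0.05, where the shares over all genes tested are 1.97% higher and 1.23% lower.

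Immune markers had mostly positive log2 fold changes. Of 19 tested markers of macrophages and dendritic cells 13 were positive and 6 negative (median 0.31), and of 11 of B and plasma cells 8 and 3 (median 0.42). At the mid-tail and tip of the same rams 19 and 17 of the 19 macrophage markers were positive. The summed levels at the base, over the 23 and 19 members in the data, overlapped. The first list had 204.1 to 286.7 CPM in A/A against 186.4 to 261 in D/D. The second had 464.4 to 568.9 against 450.1 to 578. ITGAM, the integrin of myeloid cells, had a log2 fold change of 0.85 and MS4A1, the B cell protein CD20, 2.06, with 2.73, 0.651, 0.613 and 0.0938 CPM in A/A against 0.205, 0.154 and 0.362 in D/D. TPSB2, a tryptase of mast cells, was at 1.26 to 2.6 CPM against 0.493 to 1.15. ERAP1, a peptidase of antigen presentation, had 0.67 and overlapped. It was the highest of 16 antigen presentation genes, of which 8 were positive and 8 negative (median 0.04). S100A8, the alarm protein calprotectin of granulocytes and irritated keratinocytes, was at 64.7 CPM in the D/D ram 871787 against 1.22 to 11.3 in the other 6 rams. KRT2, a keratin of the upper epidermis, was at 567, 211, 24.5 and 140 CPM in A/A and at 64.6, 20 and 78.8 in D/D, and the genotypes overlapped.

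Glucocorticoid targets had 12 positive and 4 negative log2 fold changes of 16 tested (median 0.33), FKBP5 and ZBTB16 on one side and CDKN1C, a brake of the cell cycle with 11.9 to 19.0 CPM in A/A and 20 to 26.1 in D/D, on the other. TRIB3, a stress kinase-like protein, had -0.84. Nuclear genes of mitochondrial respiration had 4 positive and 18 negative values of 22 (median -0.13, and -0.07 with the span trend removed). Wool follicle markers had 3 positive and 19 negative (median -0.24), with KRT25, a keratin of the inner root sheath, at 3680 to 5550 CPM in A/A and 4620 to 6280 in D/D, and none had an unadjusted p under 0.05. CSN2, the milk protein beta-casein, had the highest log2 fold change of all genes tested, 6.30 ± 1.7 (SE), with 0.044, 0.611, 18.5 and 7.36 CPM in A/A against 0.0411, 0.0307 and 0.165 in D/D. Both libraries of rams 871784 and 871772 held it, at 16.2 and 21.5 and at 8.12 and 5.8 CPM, while ram 835507 was at the level of the D/D rams. Of the other milk genes only SLC34A2, a phosphate carrier, had an unadjusted p under 0.05, with a log2 fold change of -1.09.

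Several genes with LOC symbols had the smallest p-values and were named after their values were seen. LOC132658702, a long noncoding RNA of chromosome 26 (14792957 to 14798192), was at 0, 0.163, 0.153 and 0 CPM in A/A and at 0.904, 2.64 and 2.14 in D/D (adjusted p = 5.9e-05 from DESeq2). LOC106990933, a protein coding gene of chromosome 2 (50349899 to 50391173), was at 0.264, 0, 0.276 and 0 CPM in A/A and at 1.27, 3.16 and 3.3 in D/D (adjusted p = 5.9e-05 from DESeq2). In both the A/A rams lay below 0.3 CPM and the D/D rams above 0.9. LOC114109036, a long noncoding RNA of chromosome 1 (194569696 to 194572407), was at 0.516 to 1.54 CPM against 2.51 to 8.81, and LOC132657456 of chromosome 12 (28081378 to 28087372) at 0.22 to 0.674 against 1.29 to 2.96. In the other direction, LOC132657224, a long noncoding RNA of chromosome 9 (60800816 to 60814353), was at 1.27 to 1.9 CPM in A/A and 0.297 to 0.399 in D/D. LOC101123619, a protein coding gene of chromosome 3 (132904710 to 133001249), was at 8.37 to 16.6 CPM against 3.95 to 4.81. SCD, LOC132658702, LOC106990933, LOC114109036, LOC101123619 and LOC121818848 were the 6 genes that DESeq2 called on the ram sums.

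The same 7 rams were measured at the mid-tail and the tail tip, so that the comparisons share animals but no library, and the D/D ram 871869 had only 1 library at the mid-tail. The tails of the D/D rams are longer, so these sites do not match in distance from the base. For that reason the study makes no direct comparison of the genotypes there. The part of this distance in the values below was not tested. From base to tip, SCD had log2 fold changes of 2.37, 1.48 and 0.81, its D/D rams being at 84.8 to 140 CPM at the mid-tail and 163 to 215 at the tip. RPE65 had 2.60, 3.06 and 1.73, CRACR2A 1.17, 1.70 and 0.91, and THRB 1.30, 1.68 and 1.09. SPA17, a sperm protein of cilia and one of the 12 lower genes, had -0.80, -0.87 and -1.10, with every A/A ram below every D/D ram at each position. CSN2 had 6.30, 4.59 and 3.03, and the A/A ram 835507 was at 0.044, 0.0417 and 0.0661 CPM. Values of a ram at the 3 positions are not independent, and none of the genes named in this paragraph had an adjusted p under 0.05 in edgeR at any of them.

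The contractile genes had other values farther down the tail. For ACTG2 the log2 fold changes from base to tip were -1.14, 0.93 and 0.67. In CPM its A/A rams were at 54.8 to 66.6, at 53.6 to 313 and at 66.1 to 288, and its D/D rams at 84.2 to 169, at 101 to 117 and at 86.6 to 110. CNN1 had -1.14, 0.84 and 0.31, and all 17 markers of the list had positive log2 fold changes at the mid-tail (median 0.41). LTBP2 had -0.64, 0.56 and 0.62, CDKN1C -0.65, 0.10 and 0.55, and HOXC11 -1.07, -0.08 and 0.22. For HOX groups 1 to 9 the medians were -0.25, 0.23 and 0.43. For HOX groups 10 to 13 they were -0.32, -0.10 and -0.02, over 9, 10 and 10 tested genes, of which 1, 3 and 5 were positive. These sets differ, as HOXB13 was filtered out only at the base. It had log2 fold changes of 4.025 (mid-tail) and 3.047 (tip), and its genotypes did not overlap in either. The adjusted p of HOXB13 in edgeR was 0.848 (mid-tail) and 0.458 (tip). For the limb regulators the medians were -0.19, 0.23 and 0.11. The difference itself, the base value minus the mean of the mid-tail and tip values within rams, was tested in edgeR over 19029 genes, and 0 of them (0%) had an adjusted p under 0.05, with 1439 at an unadjusted p under 0.05 and 0 by limma-voom. The smallest adjusted p was 0.115, that of LOC106990933, with a difference of -4.41 ± 0.66 (SE). LTBP2 had a difference of -1.20 ± 0.23 (SE, adjusted p = 0.382 from edgeR), ACTG2 -1.68 ± 0.44 (SE, adjusted p = 0.546 from edgeR) and SCD 1.29 ± 0.54 (SE, adjusted p = 0.658 from edgeR).

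**Figure D5:**
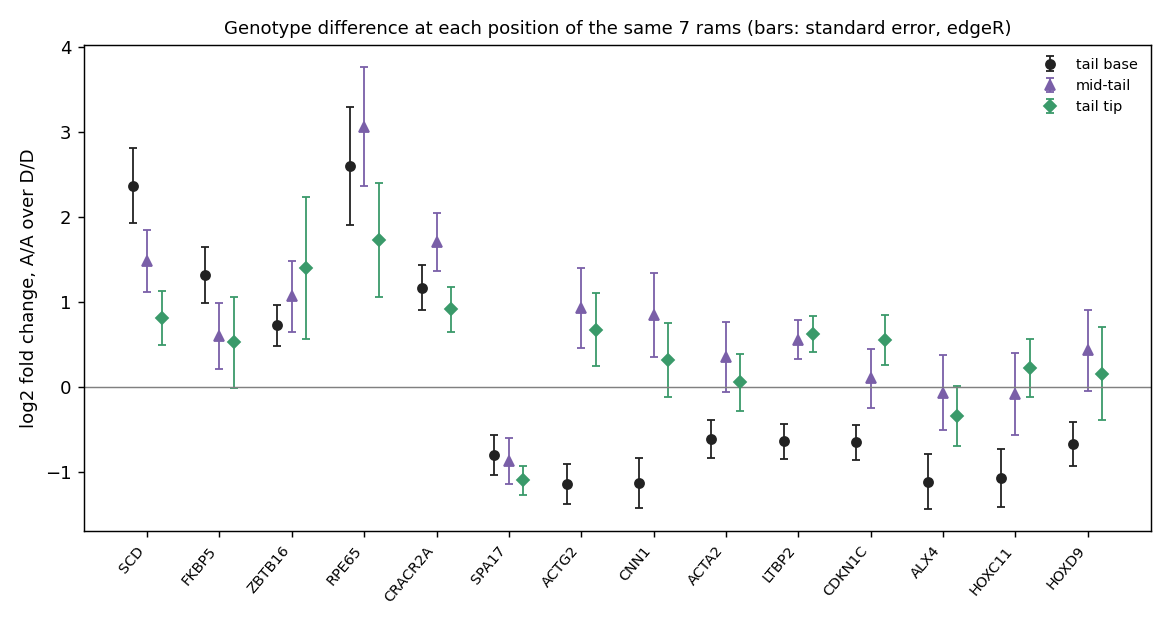
Genotype difference (log2 fold change, positive where A/A is higher) with its standard error from edgeR for 14 genes at the tail base (circles), mid-tail (triangles) and tip (diamonds) of the same 7 rams. SCD, RPE65, CRACR2A and SPA17 keep to one side of 0, and ACTG2, CNN1, ACTA2, LTBP2 and CDKN1C lie below 0 at the base and above it at both other positions, though no difference between the positions passed the test. Mid-tail and tip lie farther from the base in D/D than in A/A.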

How the data were processed

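RNA was extracted from skin of 3 tail positions, selected with oligo(dT) beads and made into random-primed CorALL libraries. The authors checked the reads with FastQC 0.11.9, aligned them to the sheep genome ARS-UI_Ramb_v3.0 and to rRNA sequences with ContextMap 2 over BWA, and counted them by strand with featureCounts. The deposited values are raw read counts per gene, not normalized. The tail tip columns were handled like estimated counts, but the deposited values are whole numbers and rounding changed none of them. The study's methods name fewer A/A rams than the labels, and the labels were followed.

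The 2 libraries of each ram were summed, and 4 A/A were compared with 3 D/D ram sums in edgeR 4.0.16 (filterByExpr, TMM, quasi-likelihood test, Benjamini-Hochberg adjustment) under R 4.3.3, unpaired. Of 31182 genes, 5945 had no count at the base and 17738 were tested. The position test used all 21 ram sums with the ram as a block. DESeq2 1.42.0, limma 3.58.1 voom, other normalizations and filters, single libraries and leaving out each ram were alternatives. The threshold of the study is an adjusted p of at most 0.01 with an absolute log2 fold change over 1. The scripts were tested on simulated data. Intervals of counts cover counting error only, and p-values from ram sums measure the spread between these rams. In the fits on several libraries of a ram, the p-values also take in the spread between libraries of the same ram.

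Genes named are HOXB13, those the study names, the 12 with the smallest p in each direction among symbol genes without overlap whose mean reached 1 CPM in a genotype, symbol genes called by DESeq2, up to 4 members with the smallest p of each list described, and neighbours of HOXB13 within 1 Mb with an unadjusted p under 0.05. Others are said to be named after their values were seen. The members and lists were chosen with earlier results of these data known. Biotypes and coordinates are those of RefSeq for ARS-UI_Ramb_v3.0, which held 28742 of the genes.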

Additional observations from a re-analysis of the deposited data

Results flagged for a closer look

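In 10 of 134 values checked, 1 of the 4 A/A rams stood apart from the other 3 by Dixon's ratio of the gap to the range. Chance alone puts about 1 in 20 such groups past it, and the 3 D/D rams are too few for it. Ram 835507 was the highest in 4 of them, the summed levels of skeletal muscle markers (ratio 0.996, 56.25 CPM), of triglyceride synthesis and lipid droplets (0.883, 4696 CPM) and of fatty acid synthesis and elongation (0.848, 4175 CPM), and ACSM2B (0.847, 53.6 CPM). Ram 871772 was the highest for SOX18 (0.894, 3.7 CPM), BMPR2 (0.885, 44.73 CPM) and the summed endothelial markers (0.849, 810.6 CPM), and the lowest for SPA17 (0.875, 6.14 CPM). Ram 871932 was the highest for PDGFB (0.898, 9 CPM) and for the summed neighbours of HOXB13 (0.891, 1354 CPM). These are values of single rams, and what sets them was not tested.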

How the results depend on the processing

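The count of 0 genes with an adjusted p under 0.05 in edgeR held with robust estimation, limma-voom, RLE factors, library totals, other filters, library 1 or 2 alone and each ram left out, and likewise for the position test. DESeq2 on ram sums called 6 genes and gave 17 an adjusted p under 0.05, and with the study's design on 41 libraries 56 and 197 (2320 at an unadjusted p under 0.05). The 567 genes at an unadjusted p under 0.05 became 855 without a filter, 1651 with library 1 alone, and 367 (without ram 871868) to 1539 (without ram 871932) with 1 ram left out. The 836 genes without overlap became 1736 with library 1 alone and 1233 to 2747 with 1 ram left out, where fewer rams make overlap less likely. With library totals, the split of genes without overlap was 396 higher and 431 lower, against 504 and 332, and that at an unadjusted p under 0.05 was 287 and 268.

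Over all genes, deviations of library 1 from the ram mean correlated between rams from -0.225 to 0.415, over 0.1 in 6 of 21 pairs, so the library number was not taken to pair the rams, although rRNA share and long genes differed between libraries 1 and 2 in a like direction within A/A, and long genes in the opposite direction within D/D. In edgeR, the 14 single libraries gave 2 genes with an adjusted p under 0.05 (LOC106990933 and LOC114109036) and 1318 at an unadjusted p under 0.05, and with the library number as a replicate block 2 and 1175.

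Among the named genes 19 values turned in sign. With library 1 alone ADIPOQ had 1.236 and GREM1 0.09906, and with library 2 alone CGNL1 had -0.1091, HOXA13 -0.2508, PDGFD -0.03168 and THRB -0.1687. ACSM2B had -0.3079 and -0.3129 in limma-voom (7 and 21 ram sums) and -0.5331 in the study's design, and GDF11 -0.00512, -0.01462 and -0.169. With 1 ram left out ACSM2B ranged from -2.916 to 3.715, ADIPOQ from -1.131 to 0.02736, FAR2 from -0.4806 to 1.884, GDF11 from -0.1845 to 0.7095, HOXA13 from -0.09076 to 0.7359 and SOAT1 from -0.3005 to 1.627. The cause was not tested. Of 946 list medians 37 moved by more than the spread between rams.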
